A study of Mus musculus with 5 samples.

Results

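Non-coding RNA at genes of testosterone synthesis was described in mouse testis: the lncRNA loci XLOC_181926, antisense to Star, and XLOC_145627, antisense to Scarb1, and every circular RNA (circRNA) hosted by Star, Scarb1, Lhcgr, Por, Cyp11a1, Cyp17a1, Hsd17b3 or Srd5a1. The loci were taken by their identifiers, with their 5 isoforms, and circRNAs by host gene symbol. The rule holds no threshold on a measured value, but it was set with earlier results of these data known. They were 2 of 16356 lncRNA loci (5 of 33057 transcripts) and 2 of 11957 circRNAs, and both circRNAs came from Lhcgr. Male C57/BL6J mice aged 10 weeks were given triptolide, a diterpenoid of the vine Tripterygium wilfordii, by the intragastric route at 50 µg per kg of body weight each day, and control mice received saline. Testes were collected at 35 days. The labels name 6 mice per group and 5 whole-testis RNA libraries, 2 of control and 3 of triptolide mice, and do not say whether each library holds RNA of a single mouse or of several. The p-values thus rest on library-to-library spread alone, which may be technical.

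Testosterone is made in the Leydig cells, which lie between the seminiferous tubules and are far outnumbered by germ cells. Luteinizing hormone binds its receptor, encoded by Lhcgr, and raises cyclic AMP. Cholesterol, taken up from lipoproteins through the receptor SR-BI (Scarb1), is carried into mitochondria by the protein StAR (Star), where Cyp11a1 cleaves its side chain. Cyp17a1, supplied with electrons by the reductase Por, and Hsd17b3 act later on the path to testosterone, which Srd5a1 can reduce to dihydrotestosterone. An antisense lncRNA is read from the strand opposite to a gene, and a circRNA is a closed ring made when a downstream splice site is joined back to an upstream one.

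Total lncRNA counts per library lay between 947298 and 1071012. CPM below scales a count to the total lncRNA count of its library in the usual way. Where triptolide columns carry the same header, the libraries have letters in place of numbers. The lncRNA table has A, B and 3, the circRNA table A, B and C, and a letter does not name the same library in both. The mRNA values imply fragments of 289 and 278 bases in the control libraries and 257, 264 and 258 bases in the triptolide libraries. The groups are apart (exact permutation test, two-sided, p = 0.1, which is the lowest p possible with 5 libraries split this way). Any group difference below therefore coincides with shorter fragments, whose part in it was not tested. Messenger RNA of the 8 genes was not analysed here, because the mRNA table gives transcript identifiers that the name tables used do not pair with genes.

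The antisense locus at Star had lower values in all 3 triptolide libraries than in either control, but the difference did not pass the test. XLOC_181926 (chromosome 8, 25812466 to 25815066, minus strand, 2601 bases) holds a single assembled transcript of 2 exons, TCONS_00307938, absent from the authors' known class, and lies inside the Star gene in RefSeq's GRCm38.p6 table. It had 51 and 62 counts in control 1 and 2, and 32, 39 and 44 counts in triptolide A, B and 3. Scaled to library totals, the controls had 52.9 and 57.9 CPM, while triptolide A, B and 3 had 33.8, 36.8 and 42.7 CPM. The groups did not overlap, with triptolide 3 closest to the controls. Among all lncRNA loci tested, 18.3% likewise had every triptolide library below both controls (17.3% of antisense loci), so the separation alone does not set this locus apart.

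The mean CPM of the Star antisense locus was 55.4 ± 3.6 (SD, n = 2) in control and 37.8 ± 4.6 (SD, n = 3) in triptolide, a control mean 1.47 times the triptolide mean. Its log2 fold change was -0.55 ± 0.30 (SE), and the p adjusted over 6889 loci was 0.28 (edgeR's quasi-likelihood test). By that test 505 loci (7.33%) passed at 0.05 after adjustment, of which 348 (5.05%) were higher and 157 (2.28%) lower after triptolide, and 0 of the 2 antisense loci described here were among them. Leaving out control 1 or triptolide A brought the number that passed to 266 each, and leaving out triptolide 3 brought it to 260. Counting error was wide at this depth. For the libraries closest between the groups, the 95% exact Poisson interval was 38.0 to 67.1 counts (control 1) and 32.0 to 59.1 counts (triptolide 3). For those furthest apart it was 47.5 to 79.5 counts (control 2) and 21.9 to 45.2 counts (triptolide A), without overlap. The interval covers counting error only. In whole testis, fewer cells of a type and less RNA per cell cannot be told apart. The labels describe a directional library kit, but no source used here states the strand setting of the counting, and reads of Star itself and of its antisense RNA cannot be told apart for certain.

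**Figure D1:**
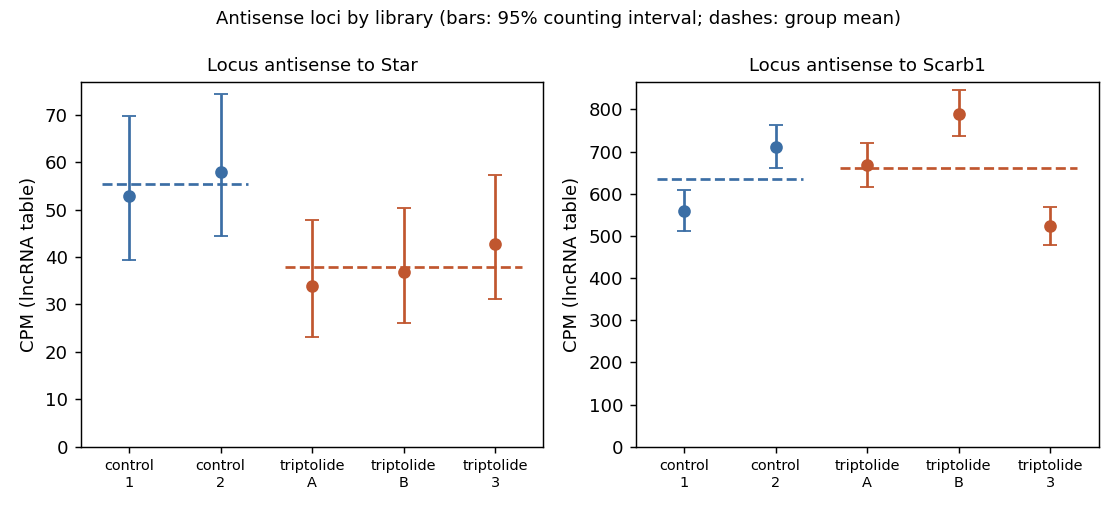
CPM of the loci antisense to Star (left) and Scarb1 (right) in each library, with points for libraries, vertical bars for the 95% exact Poisson interval of the count and dashes for group means. At Star the triptolide libraries (33.8 to 42.7 CPM) lie below both controls (52.9 and 57.9 CPM), while at Scarb1 the groups overlap.

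Set among the 1937 antisense loci tested, the log2 fold change of the Star locus was undercut by 227 (11.7%). Of the 762 antisense loci with a mean CPM within 2-fold of it, 77 had a lower value. The median over antisense loci was 0.01. The 3 loci chosen for the smallest difference in pattern over the 5 libraries among 2616 with a CPM within 2-fold are described next. The root mean square difference of centred log2(CPM + 1) was 0.033 for XLOC_116410 (ENSMUSG00000086605; chromosome 2, 167098627 to 167102399), 0.050 for XLOC_046025 (4933404K08Rik; chromosome 13, 23278323 to 23282267) and 0.052 for XLOC_116405 (chromosome 2, 167074072 to 167079253). All 3 are intergenic. XLOC_116410 had 81.9 and 88.7 CPM in the controls against 54.9, 55.7 and 66.0 CPM in triptolide. Their log2 fold changes were -0.53, -0.65 and -0.55, and their adjusted p were 0.22, 0.11 and 0.29 in edgeR. Values near those of the Star locus follow from the choice by pattern and level, so they are not a separate result.

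**Figure D2:**
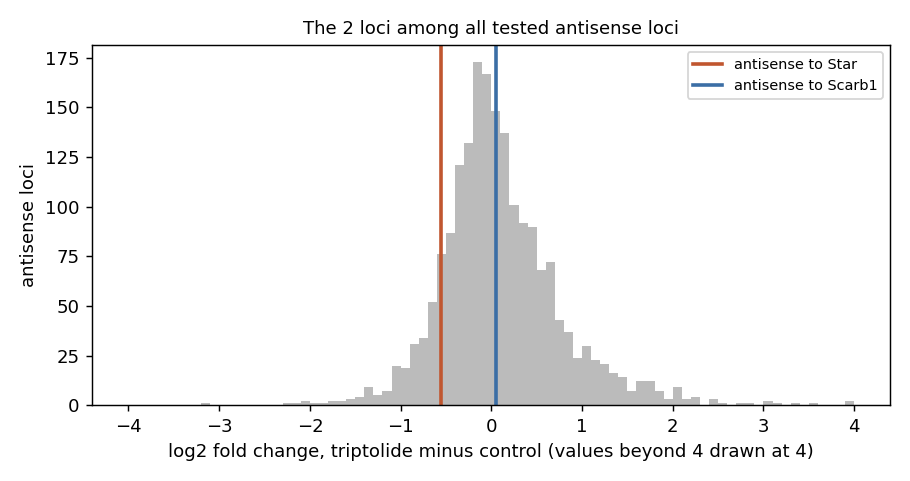
Histogram of log2 fold changes (x axis, triptolide minus control) of the 1937 antisense loci tested (y axis, number of loci), with vertical lines at the loci antisense to Star and Scarb1. The Star locus, at -0.55, lies in the lower part of the distribution and the Scarb1 locus, at 0.05, near its median of 0.01.

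The nearest lncRNA locus to the Star antisense locus had its higher values in triptolide. Neighbours within 100000 bases were looked up after the values had been seen. XLOC_176968 (chromosome 8, 25816236 to 25826941, plus strand), 1169 bases away, is antisense to Ash2l, which encodes a subunit of histone H3K4 methyltransferase complexes. It had 269 and 164 CPM in the controls against 308, 239 and 325 CPM in triptolide, and the groups overlapped through triptolide B. Its log2 fold change of 0.44 ± 0.22 (SE) had an adjusted p of 0.23 in edgeR, and with 1 library left out the log2 fold change ranged from 0.16 to 0.81.

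The antisense locus at Scarb1 did not differ detectably between the groups. XLOC_145627 (chromosome 5, 125303280 to 125307491, plus strand, 4212 bases) lies inside the Scarb1 gene in the same RefSeq table and holds 4 isoforms, likewise outside the known class. It had 539 and 762 counts in control 1 and 2, and 632, 836 and 538 counts in triptolide A, B and 3. Scaled alike, the controls had 559 and 711 CPM, while triptolide A, B and 3 had 667, 790 and 523 CPM. The highest and the lowest library were both of triptolide.

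The mean CPM of the Scarb1 antisense locus was 635 ± 110 (SD, n = 2) in control and 660 ± 130 (SD, n = 3) in triptolide. Its log2 fold change was 0.05 ± 0.19 (SE), and its adjusted p in edgeR was 0.91. The sign turned without control 1 (-0.13) or without triptolide B (-0.08), so no direction is given. Of the antisense loci tested, 1028 (53.1%) had a lower log2 fold change. The likest patterns among 471 loci were those of XLOC_024417 (antisense, 1700030C12Rik; chromosome 11, 23497757 to 23499661), XLOC_086955 (intergenic; chromosome 17, 4106384 to 4122175) and XLOC_022991 (intronic, Grip1os1; chromosome 10, 119825204 to 119852480). Their root mean square differences were 0.060, 0.068 and 0.079, and their log2 fold changes 0.05, 0.09 and 0.08, which likewise follow from the choice.

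Within the Scarb1 antisense locus, TCONS_00243541 and TCONS_00243539 took most of the counts in every library. These isoforms and TCONS_00243540 have 2 exons and the same start and end. TCONS_00243541 held 50.2% and 61.6% of the locus in control 1 and 2, and 67.3%, 48.2% and 62.3% in triptolide A, B and 3. TCONS_00243539 held 43.7% and 32.4% in control, and 26.7%, 38.9% and 28.9% in triptolide. Group means were 55.9% in control and 59.3% in triptolide for TCONS_00243541, and 38% and 31.5% for TCONS_00243539. The balance of the pair thus shifted more between the 2 controls than between the group means. TCONS_00243540 held 5.96% to 6.16% in control and 6.08% to 10.5% in triptolide.

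Tested as single transcripts, these 3 isoforms had log2 fold changes of 0.10 ± 0.28, -0.16 ± 0.33 and 0.50 ± 0.45 (SE) in the order TCONS_00243541, TCONS_00243539 and TCONS_00243540, with adjusted p of 0.95, 0.94 and 0.79 in edgeR. The sign turned for TCONS_00243541 without control 1 (-0.22) or triptolide A (-0.02), and for TCONS_00243539 without triptolide 3 (0.03). That of TCONS_00243540 was 0.07 without triptolide B and 0.33 without control 1. The Star transcript had -0.54 ± 0.30 and an adjusted p of 0.62. Over all 13534 transcripts 0 passed in edgeR (0%), with 1339 (9.89%) at an unadjusted p under 0.05, and DESeq2 called 327. TCONS_00243544 starts further downstream, at 125304113, and had too few counts to be tested. It had 0 counts in both controls and in triptolide A, 20.05 expected counts in triptolide B and 7.3 in triptolide 3. The isoforms overlap, so the split of reads among them is an estimate.

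**Figure D3:**
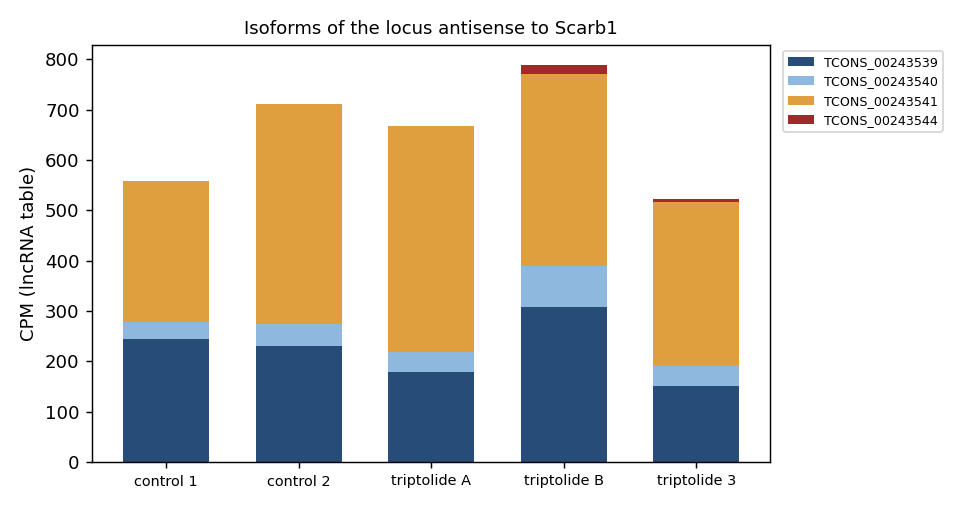
Stacked bars of CPM (y axis) for the 4 isoforms of the locus antisense to Scarb1 in each library (x axis). TCONS_00243541 (48.2% to 67.3% of the locus) and TCONS_00243539 (26.7% to 43.7%) make up most of every bar, and TCONS_00243544 appears in triptolide B and 3.

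Other lncRNA loci within 100000 bases of the Scarb1 antisense locus were also looked up after the values had been seen. XLOC_151501 (Gm32585; chromosome 5, 125238120 to 125272815), 30464 bases away, averaged 43.4 ± 7.2 CPM in control (SD, n = 2) and 47.3 ± 11 CPM in triptolide (SD, n = 3). XLOC_145632 (Gm40323; chromosome 5, 125361175 to 125379540), 53683 bases away, had 112 and 140 CPM in the controls against 109, 86.0 and 71.9 CPM in triptolide. It had every triptolide library below both controls, as 18.3% of all loci did, with a log2 fold change of -0.51 ± 0.24 (SE) and adjusted p = 0.20 in edgeR. Its log2 fold change was -0.29 without control 2. XLOC_145640, 94804 bases away, had 4.72 CPM in triptolide B and 0 CPM in every other library, too low to be tested.

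Of the 8 steroidogenic genes, Lhcgr alone appeared as a circRNA host, with 2 circRNAs that were each listed in a single library. The circRNA table holds SRPBM, a depth-scaled count of reads across the back-splice junction, and its low values are whole multiples of the worth of 1 read. The longer Lhcgr circRNA (chromosome 17, 88750103 to 88772083, spanning 21981 bases) had 33 SRPBM in control 2, which equals 4 reads, and was listed at 0 in the other 4 libraries. The shorter (chromosome 17, 88750103 to 88758411, spanning 8309 bases) had 57 SRPBM in triptolide A, which equals 6 reads, and was listed at 0 elsewhere. The pair shares the lower coordinate. RefSeq places the Lhcgr promoter on the minus strand, so that coordinate is the downstream end, and the circRNAs differ in the upstream splice site joined to it.

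Appearing in a single library was common: 6500 of 11957 circRNAs (54.4%) did so. Of those 6500, 1610 (24.8%) had at least 33 SRPBM and 170 (2.62%) at least 57 SRPBM, so the shorter Lhcgr circRNA lay in the upper range of this class by SRPBM. A read was worth more SRPBM in triptolide A (9.51) than in the other libraries (8.24 to 8.81), so shares by SRPBM are not shares by reads. Neither was in the test, which took circRNAs above 0 in at least 2 libraries. That test, limma on log2(SRPBM + 16), passed 0 of 5457 (0%), with 360 (6.6%) at an unadjusted p under 0.05. The count was 130 without control 2 and 2 without control 1, and edgeR on recovered reads called 0 of 952. No source used here states what a 0 stands for in this table, and the smallest value listed is about 2 reads.

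Summed per host gene, Lhcgr had 0 and 33 SRPBM in control 1 and 2, and 57, 0 and 0 in triptolide A, B and C. On the log2(SRPBM + 16) scale its log2 fold change was -0.08 ± 0.88 (SE), with an adjusted p of 1 in limma. Its sign turned without triptolide B or C (0.29 for each), and its SE spans a wide range in both directions, so neither a change nor its absence can be read from them. Over all 2343 host genes tested 0 passed (0%), with 147 (6.27%) at an unadjusted p under 0.05, and 47 passed without control 2.

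The other 7 genes, namely Star, Scarb1, Por, Cyp11a1, Cyp17a1, Hsd17b3 and Srd5a1, hosted 0 listed circRNAs, and no circRNA of the table overlapped their RefSeq intervals. Lhcgr and the 5 genes from Por to Srd5a1 gave their name to 0 lncRNA loci. By position, Gm43091 (XLOC_151959; chromosome 5, 135653658 to 135675041, minus strand), a known antisense lncRNA, overlapped Por. It had 0 and 1 counts in control and 2, 6 and 5 counts in triptolide, too few to be tested, and was looked up after the values had been seen.

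Other genes that supply, drive or carry out steroid synthesis were followed through 5 lists holding 106 genes, Star, Scarb1, Lhcgr and the other 5 included. They had 19 lncRNA loci, of which 11 had enough counts to be tested, and 0 were higher and 0 lower at an adjusted p of 0.05 in edgeR (7.33% of all loci passed). At an unadjusted p under 0.05 there was 1 of 11, against 21.8% of all loci. DESeq2 and limma also passed 0 of the 11, but DESeq2 gave no adjusted p for the loci at Vdac1 and Hmgcs1. Both the lists and the whole table had a median log2 fold change of 0, and 5 of the 11 were below 0.

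For cholesterol supply, 5 of 7 loci of 21 genes were tested. Besides Star and Scarb1 these included the locus of Lipe, the hormone-sensitive lipase that frees cholesterol from its esters. This locus (XLOC_164649; chromosome 7, 25395425 to 25566514) also carries the name of Ceacam1. It averaged 188 ± 18 CPM in control (SD, n = 2) and 188 ± 22 CPM in triptolide (SD, n = 3). The locus at Osbpl2, an oxysterol-binding-protein relative, averaged 120 ± 6.7 and 151 ± 33 CPM (adjusted p = 0.41, edgeR). That of Vdac1, a channel of the outer mitochondrial membrane, had at most 12.4 CPM in any library.

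Fdx1 encodes the ferredoxin that passes electrons to Cyp11a1, and its antisense locus was the 1 tested of 6 electron-transfer genes. The Fdx1 locus had 116 and 120 CPM in the controls against 110, 78.4 and 88.4 CPM in triptolide, with a log2 fold change of -0.35 ± 0.23 (SE) and adjusted p = 0.40 in edgeR. All 3 triptolide libraries were below both controls, triptolide A by a small margin, as for 18.3% of all loci. The log2 fold change was -0.23 without triptolide B. For the 18 enzyme genes of androgen synthesis the table holds 1 locus, antisense to the aromatase gene Cyp19a1, which averaged 5.49 ± 2.5 and 8.17 ± 1.6 CPM and was too low to be tested. In cholesterol synthesis (25 genes) the 1 locus, antisense to the synthase gene Hmgcs1, averaged 11.7 ± 9.9 and 10.5 ± 4.3 CPM.

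Of 36 genes of luteinizing hormone signalling and its regulators, 9 had a locus and 4 were tested. Pde8a, a phosphodiesterase that breaks down cyclic AMP, had an antisense locus (XLOC_173505) at 2100 ± 180 CPM in the controls against 2190 ± 140 CPM in triptolide. The Nespas/Gnas locus (XLOC_116905; chromosome 2, 174267655 to 174295436), at the gene of the stimulatory G protein that couples the receptor to cyclic AMP, had 850 and 847 CPM in the controls against 1220, 789 and 1410 CPM after triptolide. Its log2 fold change of 0.43 ± 0.20 (SE) had an adjusted p of 0.20 in edgeR. It passed in edgeR without triptolide B, the low library (0.65, adjusted p = 0.018), where 573 of 6601 loci passed. Without triptolide 3 its log2 fold change was 0.24 (adjusted p = 0.61, edgeR). The Gm10161/Akap13 locus, at the gene of a kinase-anchoring protein, had 125 CPM in each control and 159, 159 and 174 CPM in triptolide (adjusted p = 0.28, edgeR). All 3 triptolide libraries lay above the controls there, as for 19.7% of all loci. The locus antisense to Prkar1a, which encodes a regulatory subunit of protein kinase A, averaged 53.7 ± 16 and 45.7 ± 11 CPM.

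**Figure D4:**
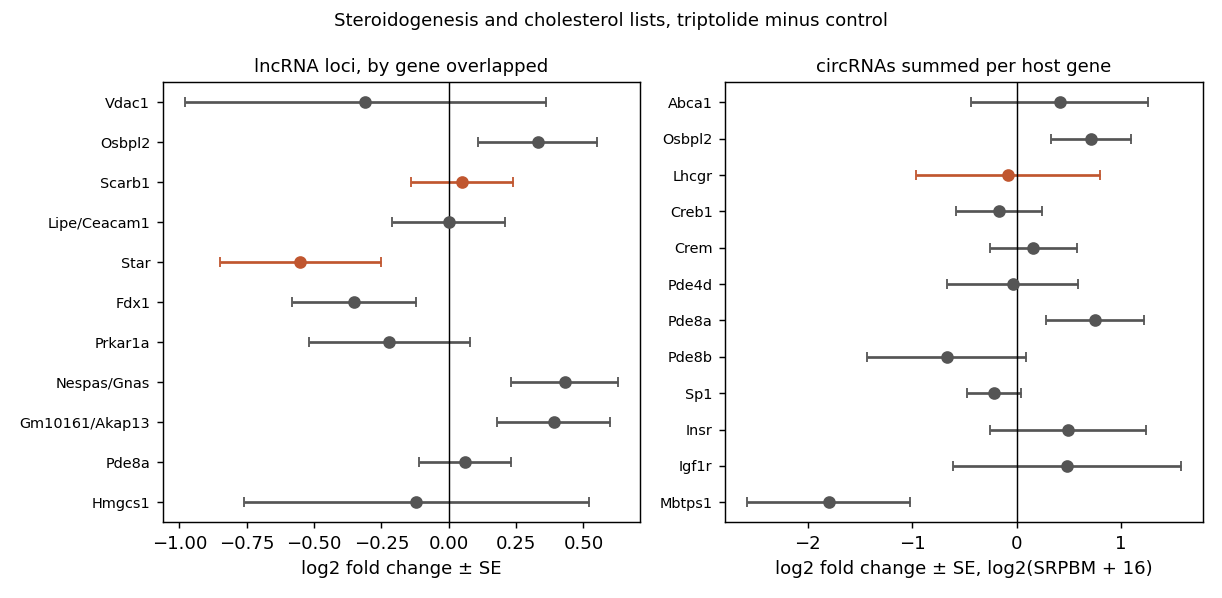
Log2 fold change, triptolide minus control, with its SE as horizontal bars, for the 11 tested lncRNA loci (left) and 12 tested circRNA host genes (right, on the log2(SRPBM + 16) scale) of the 5 lists, with Star, Scarb1 and Lhcgr in orange. The values lie on both sides of 0 in each panel, and 0 passed an adjusted p of 0.05.

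In the same 5 lists 15 genes hosted 49 circRNAs, and 0 of the 12 hosts tested were higher and 0 lower at an adjusted p of 0.05 in limma. The median log2 fold change was 0.06 against -0.08 over all hosts, and 6 of 12 were below 0. At an unadjusted p under 0.05 there was 1 of 12, against 6.27% of all hosts. This host was Mbtps1, the protease that activates the sterol-sensing SREBP factors, with 3 circRNAs. Its sum was 130 and 40 SRPBM in control and 0, 17 and 17 SRPBM in triptolide (log2 fold change -1.80 ± 0.78 (SE), adjusted p = 0.76, limma). All 3 triptolide libraries lay below both controls, as for 11.5% of host genes tested, but control 1 was far above control 2. The log2 fold change ranged from -2.49 to -1.11 with 1 library left out, the value nearest 0 being that without control 1, and from -3.42 to -1.07 under the other settings.

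Osbpl2 hosted 6 circRNAs, with sums of 147 and 212 SRPBM in control and 200, 397 and 338 SRPBM in triptolide (adjusted p = 0.77, limma), and the groups overlapped through triptolide A. Abca1, which exports cholesterol, averaged 24.5 ± 35 SRPBM in control (SD, n = 2) and 29.3 ± 20 SRPBM in triptolide (SD, n = 3). Among cyclic AMP effectors, the 13 circRNAs of Crem summed to 502 ± 330 and 513 ± 140 SRPBM, and the 7 of Creb1 to 318 ± 130 and 280 ± 96 SRPBM. Sp1, a transcription factor used by many promoters, averaged 800 ± 190 and 675 ± 49 SRPBM over 4 circRNAs. Pde8a averaged 83.5 ± 45 and 146 ± 40 SRPBM over 3. Its triptolide values of 133, 114 and 190 overlapped control 2, at 115.

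The growth factor receptor genes Insr and Igf1r averaged 33.5 ± 13 and 63 ± 49 SRPBM, and 37 ± 52 and 54.3 ± 50 SRPBM, in control and triptolide. Pde4d and Pde8b were listed at 0 in 3 libraries each. Of the 18 androgen synthesis enzymes only Hsd17b12 hosted a circRNA, listed at 17 SRPBM in control 1 and at 0 elsewhere, and the electron-transfer genes hosted 0. The signs of the smaller values depended on single libraries: without control 1 the log2 fold change was -0.60 for Abca1, -0.53 for Crem, 0.25 for Creb1 and -0.77 for Igf1r.

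The lncRNA and circRNA tables hold few items at Leydig cell genes. Of 13 Leydig cell genes, among them Insl3, Cyp11a1, Cyp17a1 and Hsd3b1, only Star had a lncRNA locus and only Lhcgr a circRNA. Germ cell genes were better covered, with 5 of 15 hosting 23 circRNAs and 2 having a lncRNA locus. Their summed circRNA level was 2970 to 3244 SRPBM in control and 2156 to 2635 SRPBM in triptolide. The difference in sums lay mostly in Prm2, the protamine 2 gene, and in Sycp1, a meiotic synapsis gene. Prm2 had 703 and 290 SRPBM in control against 86, 79 and 52 SRPBM in triptolide (log2 fold change -2.43 ± 0.46 (SE), adjusted p = 0.76, limma). All 3 triptolide libraries lay below both controls, as for 11.5% of host genes tested. Such a share was not computed for sums over a list. Sycp1 averaged 2400 ± 410 SRPBM (SD, n = 2) and 2080 ± 180 SRPBM (SD, n = 3). Its groups overlapped, with 2110 SRPBM in control 1 and 2283 SRPBM in triptolide B (log2 fold change -0.2 ± 0.24 (SE), adjusted p = 0.92, limma). The germ cell loci differed in direction. The locus at Tnp2, a transition protein gene, also carries the name of Socs1 and had 61.1 and 57.9 CPM in the controls against 86.6, 76.5 and 102 CPM in triptolide (log2 fold change 0.57 ± 0.26 (SE), adjusted p = 0.18, edgeR). The locus antisense to Sycp1 had 61.1 and 74.7 CPM against 51.7, 53.8 and 44.7 CPM (log2 fold change -0.44 ± 0.27 (SE), adjusted p = 0.36, edgeR). Neither overlapped between the groups. Among all lncRNA loci tested, 19.7% likewise had every triptolide library above both controls and 18.3% had every one below. The sum of the Tnp2 and Sycp1 loci was 122 to 133 CPM in the controls and 130 to 147 CPM in triptolide. The part of germ cell content in the Star value was not tested.

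For the other cell types that a testis sample could hold, few genes were represented. Of 7 macrophage genes 2 hosted circRNAs, summing to 16 and 17 SRPBM in the controls and 66 to 96 SRPBM in triptolide. Mrc1, the mannose receptor, had 0 and 16 SRPBM in control and 66, 53 and 69 SRPBM in triptolide, with no overlap, as 7.13% of host genes tested had in this direction (log2 fold change 1.79 ± 0.69 (SE), adjusted p = 0.76, limma). The other host, Adgre1, which encodes the surface marker F4/80, did not show this pattern, with 17 and 0 SRPBM in the controls against 0, 43 and 0 SRPBM in triptolide. For the sum of these 2 hosts such a share was not computed. Macrophages lie beside Leydig cells, and the part of macrophage content in the values above was not tested. The lists for Sertoli cells and androgen response, endothelium, peritubular and smooth muscle, fat cells and epididymis hosted 0 circRNAs. They had 7 lncRNA loci, of which 1 was tested, antisense to the fat cell gene Adipoq, at 201 ± 5.3 and 185 ± 82 CPM. Too low to be tested, the locus antisense to Myh11, the smooth muscle myosin gene, had 1.04 and 0 CPM in the controls against 7.39, 5.67 and 3.89 CPM in triptolide. The epididymal Defb42 locus had 1.04 and 1.87 CPM against 4.22, 4.72 and 5.83 CPM. Both were higher in every triptolide library than in either control, as were 19.7% of the loci tested. That share was not computed over loci too low to be tested. The locus antisense to Fabp4, a fatty acid carrier gene, had 10.4 and 4.67 CPM against 4.22, 0.945 and 0 CPM. Its triptolide values all lay below both controls, as for 18.3% of the loci tested, a share likewise not computed over untested loci. Also too low to be tested, the loci antisense to Inha, Pecam1 and Cdh5 had at most 9.45, 3.11 and 2.91 CPM in any library. Their groups overlapped or met at 0, as did those of the untested macrophage locus antisense to Cd163, with at most 6.33 CPM. The part of other tissue in the values of the Star and Scarb1 loci was not tested.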

How the data were processed

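Members and gene lists were chosen with earlier results of these data known. The build hg19 and 4 tools (bedtools 2.17.0, DESeq, HTSeq 0.6.1 and HISAT2 2.0.1) are listed, per the submitters' processing notes, without their roles. The coordinates are mouse, and are printed as deposited. The lncRNA and mRNA tables hold expected counts, per the file headers. The mRNA FPKM deposited by the authors served only to estimate fragment length. The circRNA values deposited by the authors are a score, SRPBM rounded to whole numbers. Dividing by the worth of 1 read (8.24 to 9.51 SRPBM) gave 32776 to 44215 reads per library, with 95.5% to 96.6% of entries within 0.1 of a whole read.

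Expected counts were rounded, summed per locus and tested with edgeR 4.0.16 (filterByExpr, TMM, quasi-likelihood F test, R 4.3.3), triptolide against control, with Benjamini-Hochberg adjustment over all loci and a threshold of 0.05. Transcripts were tested alike. For circRNAs and host-gene sums, those above 0 in 2 or more libraries entered limma 3.58.1 with a mean-variance trend, as log2(SRPBM + 16), which understates changes of low values. Alternatives used DESeq2 1.42.0, other scalings, filters and pseudocounts, and each library left out. Tests were checked on simulated data. Named items were all members, the 3 likest loci for each antisense locus, and list items that passed or had the 2 highest means. The remaining tested list items and the neighbours were added after their values were seen. A gene of the lists is not reported here and is in none of the list counts. The 5 FPKM columns of the lncRNA table were not used. A gene table (RefSeq GRCm38.p6) served for names and overlaps.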

Additional observations from a re-analysis of the deposited data

How the results depend on the processing

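No paired analysis was possible because the repeated column headers leave fewer than 2 replicate numbers shared by the groups. These numbers come from the library titles, and no label pairs a control library with a triptolide library. The log2 fold change of the Star antisense locus kept its sign and did not pass in any of 12 alternatives (-0.66 to -0.44 with 1 library left out, -0.56 to -0.54 otherwise; adjusted p 0.26 to 0.58), 1 of them (counts summed before rounding, 501 loci passing) chosen after seeing the data. That of the Scarb1 locus was -0.13 to 0.28 with 1 library left out and 0.04 to 0.06 otherwise. The number of loci that passed was 260 to 573 with 1 library left out. Transcripts that passed numbered 39 with no filter and 327 with DESeq2. For circRNAs the number was 36 with no filter, 1 among those above 0 in all 5 libraries, and 0 to 130 with 1 library left out. For host genes it was 1 with no filter and 0 to 47 with 1 library left out. The cause was not tested.

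With 1 library left out, values that changed sign lay between -0.60 and 0.07 for Vdac1 (XLOC_031223), -0.11 and 0.15 for Lipe (XLOC_164649), -0.47 and 0.10 for Prkar1a (XLOC_034255), -0.04 and 0.19 for Pde8a (XLOC_173505) and -0.78 and 1.13 for Hmgcs1 (XLOC_055064). They lay between -0.16 and 0.31 for XLOC_024417, -0.03 and 0.21 for XLOC_086955, -0.11 and 0.31 for XLOC_022991, -0.06 and 0.34 for XLOC_151501, -0.51 and 0.03 for TCONS_00243539 and -0.22 and 0.49 for TCONS_00243541. For circRNA hosts they lay between -0.88 and 0.29 for Lhcgr, -0.60 and 1.42 for Abca1, -0.59 and 0.25 for Creb1, -0.53 and 0.85 for Crem, -0.54 and 0.20 for Pde4d, -0.46 and 0.01 for Sp1 and -0.77 and 1.73 for Igf1r. Lipe was at 0 after rounding, with a turned sign, under DESeq2 size factors, DESeq2 and limma (voom). Hmgcs1 was at 0.12 under limma (voom). With a pseudocount of 50 Lhcgr and Pde4d were at 0, and Pde4d was at 0.02 with totals scaled to be equal. Depth limits the Star locus, with 32 to 62 counts per library, and the Lhcgr circRNAs, with 4 and 6 reads.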
